A study of Mus musculus with 2 samples.

Results

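Barcodes with the transcript of an excitatory spinal neuron were selected from single-nucleus RNA sequencing of injured mouse spinal cord. A barcode entered the set when it held at least 2 unique molecular identifiers (UMIs) of Slc17a6, at most 1 UMI over the inhibitory genes Gad1, Gad2, Slc6a5 and Slc32a1 together, and fewer than 4 UMIs of Ebf2. The rule found 196 of 23814 barcodes, 142 of 16362 in the injury core library and 54 of 7452 in the distal region library. They are called excitatory barcodes here, and were described against the 903 core and 296 distal barcodes of the same library with at least 2 UMIs over the 4 inhibitory genes, called inhibitory barcodes. No limit on Ebf2 or Slc17a6 was set for the inhibitory barcodes, of which 797 core and 262 distal had 0 Slc17a6 UMIs.

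The mice were of the iNeuroD1GFP line, a transgenic in which tamoxifen induces NeuroD1, a proneural transcription factor. The cell type in which the transgene is driven is not named in the labels. The mice are labelled male and aged 8 weeks, and the cord was injured at postnatal day 60. Tamoxifen was given on days 5 to 8 after the injury, at 100 mg/kg/day. Tissue was taken at day 10 from 3 mice, and the labels do not say whether it was pooled. Both libraries share the transgene, the injury and the drug, and no uninjured, untreated or transgene-free library was analysed here. The second library is named distal in its title and in the design text but peri-injury in the extraction protocol. With 1 library for each region there is no replicate, so no p-value is given, and every interval below is a 95% interval that covers counting error only.

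Slc17a6 encodes VGLUT2, the transporter that loads glutamate into synaptic vesicles, and is the main vesicular glutamate transporter of spinal interneurons. Inhibitory spinal neurons make GABA with the enzymes of Gad1 and Gad2, take up glycine with the transporter of Slc6a5, and load both into vesicles with that of Slc32a1. In the dorsal horn the homeodomain factor Lmx1b maintains the excitatory class and the paired-domain factor Pax2 the inhibitory class, and both classes divide into families told apart by peptides, receptors and adhesion molecules.

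The libraries did not both match their label. Labelled male, the distal library had Xist, the RNA of the inactive X chromosome, in 57.1% of all barcodes, against 0.0917% in the core library. Among the excitatory barcodes, 1 of 142 core barcodes (0.704%) and 40 of 54 distal barcodes (74.1%) had Xist. Y-linked genes had a UMI in 84 core (59.2%) and 26 distal (48.1%) excitatory barcodes, and 17 of the distal barcodes had both. Tissue region and the make-up of each library by sex therefore cannot be told apart in any comparison of core with distal. The 2 libraries shared 38 barcode sequences, of which 0 core and 1 distal were among the excitatory barcodes.

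Median depth was close in the sets compared within a library, but the inhibitory sets reached deeper barcodes. Core excitatory barcodes had a median of 2949 UMIs (793 to 16277) and core inhibitory barcodes 3181 (644 to 45528). Distal excitatory barcodes had a median of 4862 UMIs (755 to 35641) and distal inhibitory barcodes 5181 (664 to 41412). In a summed level the deep barcodes weigh more. Over a set the totals were 542317 and 3988888 UMIs in the core library, and 326073 and 2109704 in the distal library. Most members sat at the edge of the rule: 119 of 142 core and 41 of 54 distal excitatory barcodes had exactly 2 Slc17a6 UMIs, and the highest had 4 and 6. Just outside it, 1168 core and 359 distal barcodes had 1 Slc17a6 UMI and met the other limits. Another 22 core and 8 distal barcodes were left out by their inhibitory UMIs and belong to the inhibitory barcodes. Ebf2 alone left out 11 core and 26 distal barcodes. Within the limits, 17 core and 5 distal members had the 1 inhibitory UMI allowed, and 4 core and 6 distal members had 3 Ebf2 UMIs.

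Markers outside the rule showed neuronal RNA in these barcodes, but those given here do not part excitatory from inhibitory neurons. Lmx1b and Pax2, which do, are described with the lineage factors. Rbfox3, which encodes the neuronal nuclear protein NeuN, had a UMI in 83.8% of core (76.7 to 89.4) and 77.8% of distal (64.4 to 88) excitatory barcodes. In oligodendrocyte barcodes, which should lack it, the shares were 16.1% and 9.41%, at median depths of 1396 and 1922.5 UMIs. After thinning every barcode to 1000 UMIs, Rbfox3 was in 40.2% of 132 core and 30.2% of 53 distal excitatory barcodes, against 12.6% and 4.32% of oligodendrocyte barcodes. Slc17a6 itself had a UMI in 5.11% of core and 2.97% of distal oligodendrocyte barcodes. Over 16 mature neuron genes the summed level, in UMIs normalised to the total of the set, was 34214 in core excitatory and 34200 in core inhibitory barcodes, and 23436 and 23320 in the distal sets. Motor neuron markers (6 genes) gave 5 core and 3 distal UMIs, and sensory ganglion markers (8 genes) 1 and 0. Chat, which makes acetylcholine in motor neurons, had 0 core UMIs and 1 distal UMI.

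Excitatory and inhibitory barcodes differed in few genes in the same direction in both libraries. The named ones include transcription factors of the 2 lineages, a pair of calcium channel subunits and some synaptic adhesion genes. Levels are UMIs normalised to the total of the summed set, in CPM, and a gene was compared when the 2 sets together held at least 50 of its UMIs. The inhibitory sets held more UMIs in total, so a gene could be compared through them alone. Of 8585 genes compared in the core library, 480 were at least 1.5-fold higher in excitatory barcodes (5.59%) and 677 at least 1.5-fold lower (7.89%). Of 6844 in the distal library, 465 were higher (6.79%) and 705 lower (10.3%). Of the 6672 genes compared in both, 56 were higher in both (0.839%) and 84 lower in both (1.26%). The 56 were 22% of the genes higher in the core library and 12.4% of those higher in the distal library, and the 84 were 22% and 12.9% of those lower. Another 33 genes were higher in the core and lower in the distal library, and 34 the reverse. The counts depended on the settings, from 8 to 281 genes higher and 13 to 242 lower in both, so they are a background against which the named genes are read. RNA of other cell types did not stand alike in the sets: the 6 oligodendrocyte markers summed to 502 against 497 CPM in the core library and to 2512 against 3305 CPM in the distal library, and all 6 were detected in both excitatory sets. The 4 endothelial markers gave 1 UMI in core and 15 UMIs in distal excitatory barcodes (46 against 12.8 CPM), with 3 of them at 0 in the core set. With barcodes over 1% oligodendrocyte UMIs left out, 52 of the 56 higher and 75 of the 84 lower genes passed again, and the part of the endothelial genes was not tested.

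**Figure D1:**
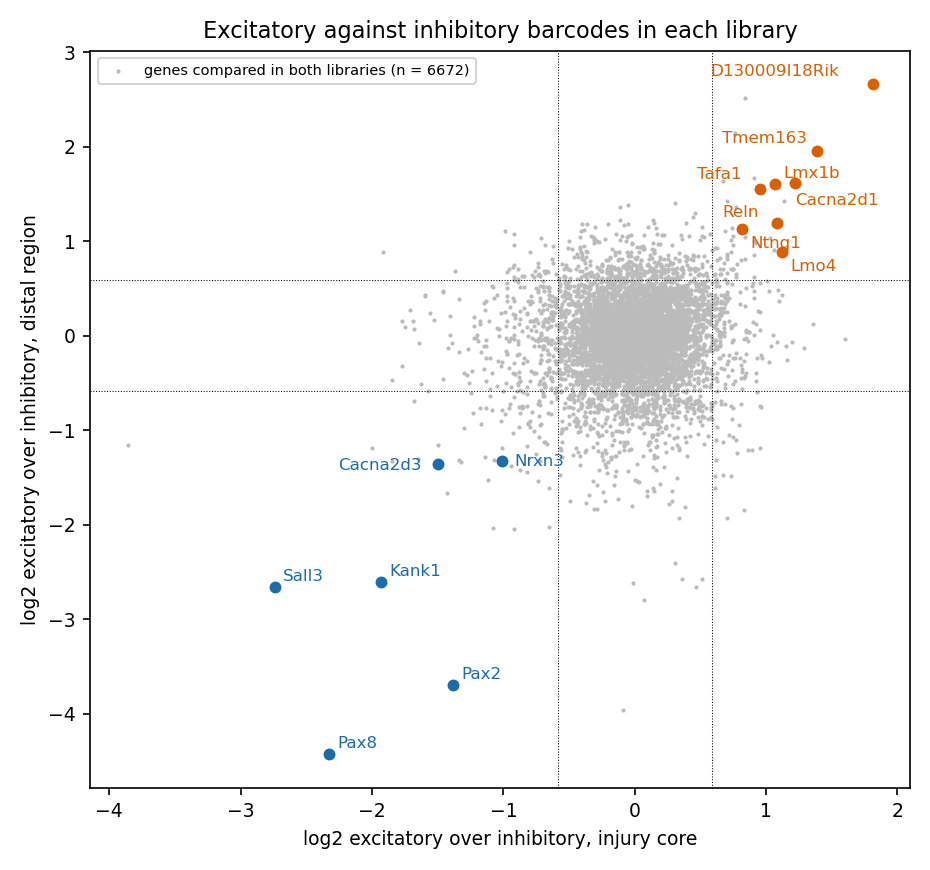
Each point is 1 of 6672 genes; the axes give the log2 ratio of excitatory over inhibitory barcodes in the injury core (horizontal) and distal region (vertical) libraries, and dotted lines mark 1.5-fold. D130009I18Rik, Tmem163, Cacna2d1, Lmx1b and Tafa1 lie at the upper right and Pax8, Pax2, Sall3 and Kank1 at the lower left, while most genes lie near 0 on both axes.

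Transcription factors that set the inhibitory lineage were low in excitatory barcodes. Of 23 listed inhibitory lineage factors, 6 were compared in both libraries, and 4 of them (Pax2, Pax8, Sall3 and Rorb) were lower in both while 0 were higher. The median log2 ratio over the 6 was -1.06 in the core and -2.10 in the distal library, against medians of -0.00 and 0.01 over all genes compared in both. Foxp2, a forkhead factor, had log2 ratios of 0.33 in the core and -0.73 in the distal library. Pax2, a paired-domain factor that the dorsal inhibitory class keeps in the adult, stood at 47.9 CPM (26 UMIs) in core excitatory and 127 CPM (508 UMIs) in core inhibitory barcodes, a ratio of 0.376 (0.244 to 0.558). In the distal library Pax2 had 2 UMIs in excitatory barcodes (6.13 CPM) and 209 in inhibitory barcodes (99.1 CPM), a ratio of 0.0619 (0.00745 to 0.226). Pax8, its close relative, had 4 UMIs against 166 in the core library, a ratio of 0.177 (0.0477 to 0.462), and 0 against 69 in the distal library, at least 3.55-fold lower with a floor of 3 UMIs for the set. Sall3, a zinc-finger factor, had 2 UMIs against 122 in the core library (ratio 0.121, 0.0144 to 0.445) and 1 against 61 in the distal library (0.106, 0.00264 to 0.614). Rorb, a nuclear receptor found in dorsal inhibitory neurons, was lower by less, at 75.6 against 128 CPM in the core library and 46 against 138 CPM in the distal library. In the core library Pax2 reached 4.55% of excitatory barcodes after thinning to 1000 UMIs, close to the 4.5% of oligodendrocyte barcodes, and it was in 14.4% of inhibitory barcodes. The source of the Pax2 UMIs in excitatory barcodes was not tested. The 21 core excitatory barcodes with Pax2 were set against the 121 without it. They had Cacna2d1 at 0.653 times (0.472 to 0.885) and Cacna2d3 at 1.5 times (1.11 to 2.02) the level, the direction of inhibitory barcodes. Tafa1, at 1.25 times (1.03 to 1.51), went the other way.

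Among factors of the excitatory lineages Lmx1b stood out. Of 25 listed dorsal excitatory factors, 11 were compared in both libraries, 1 was higher in both and 0 were lower in both, with median log2 ratios of 0.06 and 0.47. The shares over all genes compared were 0.839% higher and 1.26% lower in both. Lmx1b (chr2:33560965-33640511, minus strand, GRCm38) had 81.1 CPM (44 UMIs) in core excitatory and 38.9 CPM (155 UMIs) in core inhibitory barcodes, a ratio of 2.09 (1.46 to 2.94). In the distal library it had 76.7 CPM (25 UMIs) against 25.6 CPM (54 UMIs), a ratio of 3.00 (1.79 to 4.9). The size of the Lmx1b ratio depended on the barcodes: its log2 value in the core was 1.07 with all of them and 2.34 without the deepest 5%, and in the distal library it was 1.60, against 0.65 with at least 3 Slc17a6 UMIs and 2.85 with every barcode weighted alike. Its UMIs were spread over 32 of 142 core (22.5%) and 15 of 54 distal (27.8%) excitatory barcodes, against 11.3% and 10.1% of inhibitory and 2.92% and 2.43% of oligodendrocyte barcodes. Thinned to 1000 UMIs, the Lmx1b shares were 7.58% and 9.43% of excitatory, 3.58% and 1.03% of inhibitory, and 0.901% and 0.853% of oligodendrocyte barcodes. The other compared dorsal factors were less separated: Ebf1, an early B-cell factor family member, was 1.2-fold (1.11 to 1.3) and 1.4-fold (1.25 to 1.56) higher, and Rora, a nuclear receptor, 1.08-fold and 1.02-fold. The distal Ebf1 level was uneven, at 1702 CPM in the 41 members with 2 Slc17a6 UMIs and 391 CPM (293 to 511) in the 13 with more. In the core library these strata had 1237 and 1308 CPM of Ebf1. Maf, a leucine-zipper factor of deep dorsal horn neurons, had a ratio of 0.754 (0.54 to 1.03) in the core and 2.16 (1.54 to 2.98) in the distal library, where 18 of its 51 excitatory UMIs came from 1 barcode and made up 35.3% of the total. Without that barcode the distal Maf ratio was 1.47 (0.975 to 2.15), under 1.5-fold. Meis2, a TALE homeodomain factor, had log2 ratios of 1.02 in the core and 0.47 in the distal library and so passed 1.5-fold in the core library alone.

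Several dorsal determinants were too sparse to compare. Tlx3, which acts with Lmx1b in the excitatory class, had 1 core and 0 distal UMIs, Lbx1, a factor of the dorsal horn lineages, 1 and 2, and Prrxl1, a homeodomain factor of the superficial horn, 6 and 2. Of the 13 ventral excitatory factors only Lmo4, a LIM-only cofactor, could be compared. Its ratio was 2.13 (1.23 to 3.55) in the core and 1.78 (0.823 to 3.53) in the distal library. Shox2 and Evx1, factors of ventral excitatory classes, had 0 UMIs in both libraries, and Sim1, a factor of V3 interneurons, had 2 core UMIs and 1 distal UMI. Lmo3, another LIM-only gene, was 2.18-fold (1.45 to 3.21) and 2.65-fold (1.38 to 4.86) higher, and was not on a list but entered by the size of its ratio. Of 12 factors that mark the birth order and position of spinal neurons, 8 were compared, and 0 were higher or lower in both libraries (median log2 ratios 0.02 and 0.09). The shares over all genes were 0.839% higher and 1.26% lower in both.

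Of 29 listed peptides and markers of excitatory dorsal horn families, 7 were compared in both libraries, 4 were higher in both and 0 lower, with medians of 0.67 and 0.71. Among all genes compared in both, 0.839% were higher in both and 1.26% lower. Reln, which encodes the secreted glycoprotein reelin, had 175 CPM (95 UMIs) in core excitatory and 83 CPM in core inhibitory barcodes, a ratio of 2.11 (1.66 to 2.66), and 172 against 75.8 CPM in the distal library, a ratio of 2.26 (1.64 to 3.09). Tacr1, the substance P receptor of projection neurons and some interneurons, was 1.65-fold (1.13 to 2.36) and 2.16-fold (1.19 to 3.74) higher. Cpne4, a copine gene, was 1.69-fold (1.28 to 2.22) and 1.55-fold (1.03 to 2.27) higher. After thinning, Reln was in 15.2% of core and 11.3% of distal excitatory barcodes, against 5.41% and 2.67% of oligodendrocyte barcodes. Nmur2, Sox5 and Elavl4 did not pass 1.5-fold in both libraries, with log2 ratios of 0.14 and 0.98, 0.29 and 0.15, and -0.30 and -0.04.

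The peptides that name these families were almost absent from the counts. Tac1, the gene of substance P, had 4 core and 3 distal UMIs, Tac2, of neurokinin B, 3 and 2, Sst, of somatostatin, 4 and 1, Cck, of cholecystokinin, 2 and 1, and Nmu, of neuromedin U, 3 and 3. Grp, of gastrin-releasing peptide, and Trh, of thyrotropin-releasing hormone, had 0 in both. A count of 0 allows up to 9.2 CPM in the distal excitatory set, so the absence of these families cannot be read from these numbers. On the inhibitory side, 4 of 16 listed markers were compared, 2 were lower in both libraries and 0 higher (medians -0.54 and -0.75). For all genes compared the shares were 1.26% lower and 0.839% higher in both. Nxph1, a secreted neurexin ligand, had 520 against 1013 CPM in the core library (0.513, 0.453 to 0.579) and 604 against 1035 CPM in the distal library (0.584, 0.502 to 0.676). Kcnip2, a potassium channel partner, rested on 12 core and 4 distal excitatory UMIs and was compared mainly through its inhibitory UMIs. Lamp5, a lysosome-associated membrane protein gene, had 6 against 150 UMIs in the core library and 5 against 88 in the distal library, ratios of 0.294 (0.106 to 0.656) and 0.368 (0.116 to 0.891).

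**Figure D2:**
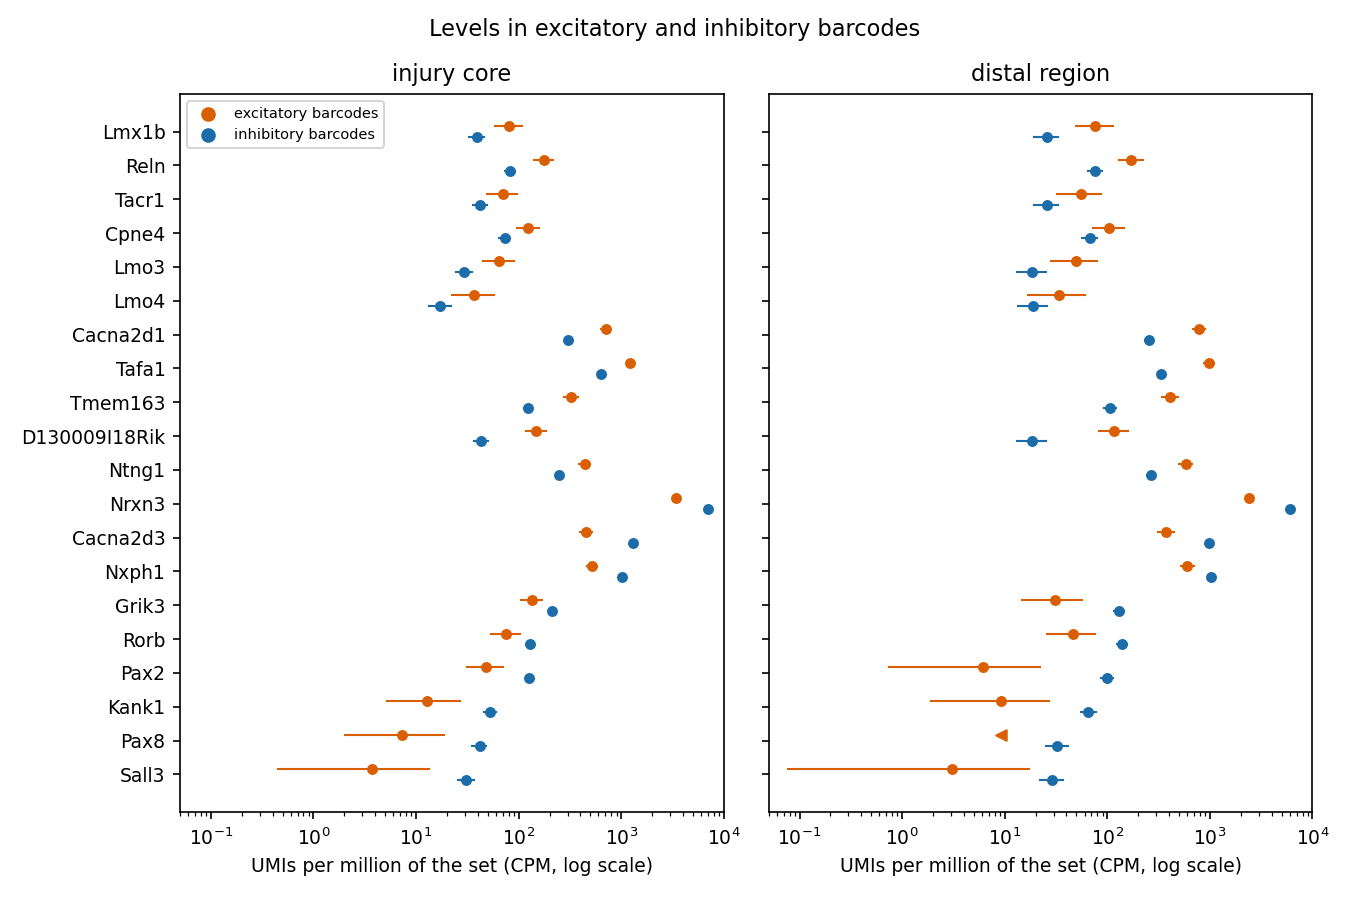
Level of named genes in excitatory and inhibitory barcodes of each library, in CPM on a log axis, with exact Poisson 95% intervals; the arrowhead at Pax8 marks 0 UMIs drawn at the floor of 3 UMIs. Genes from Lmx1b to Ntng1 lie higher in excitatory barcodes and genes from Nrxn3 to Sall3 higher in inhibitory barcodes, in both panels.

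The clearest separation among channel genes lay within 1 subunit family. Voltage-gated calcium channels carry an auxiliary alpha2delta subunit that brings the pore to the membrane and takes part in synapse formation. Of 19 calcium channel genes, 16 were compared in both libraries, 1 was higher in both (Cacna2d1, for alpha2delta-1, the binding site of gabapentin) and 1 lower in both (Cacna2d3, for alpha2delta-3), with medians of 0.03 and 0.16. Among all genes compared in both, 0.839% were higher in both and 1.26% lower. Cacna2d1 (chr5:15934691-16374511, plus strand) had 710 CPM (385 UMIs) in core excitatory and 305 CPM in core inhibitory barcodes, a ratio of 2.33 (2.07 to 2.62), and 785 CPM (256 UMIs) against 255 CPM in the distal library, a ratio of 3.08 (2.64 to 3.58). Cacna2d3 (chr14:28904943-29721864, minus strand) went the other way, with 455 against 1288 CPM in the core library (0.354, 0.31 to 0.402) and 377 against 970 CPM in the distal library (0.389, 0.321 to 0.467). Cacna2d2, the third family member compared, had ratios of 0.823 (0.653 to 1.03) and 1.27 (0.924 to 1.7). None of the 8 pore-forming subunits compared passed 1.5-fold in either library, and their log2 ratios ran from -0.44 for Cacna1h to 0.33 for Cacna1b. Lrtm1 and the antisense gene Gm48006 lie within Cacna2d3 on the opposite strand and were also lower. Whether strand was used in counting is not stated by the labels or headers, so reads of the overlapping genes may not have been told apart.

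The split was visible barcode by barcode. Cacna2d1 had more UMIs than Cacna2d3 in 79 of 142 core excitatory barcodes (55.6%, 47.1 to 64) and in 41 of 54 distal excitatory barcodes (75.9%, 62.4 to 86.5). The reverse held in 36 core (25.4%) and 8 distal (14.8%) excitatory barcodes. Inhibitory barcodes leaned the other way, close to a mirror image in the distal library alone. They had more Cacna2d1 in 11.3% of core and 11.5% of distal barcodes and more Cacna2d3 in 75.1% and 76%. For each UMI of Cacna2d3, core excitatory barcodes had 1.56 (1.33 to 1.84) of Cacna2d1 and core inhibitory barcodes 0.236 (0.222 to 0.252). The distal values were 2.08 (1.67 to 2.6) and 0.263 (0.239 to 0.289). These are ratios of UMIs and not of molecules per length. Thinned to 1000 UMIs, Cacna2d1 was in 48.5% of core and 50.9% of distal excitatory barcodes, above the 29.7% and 13.3% of oligodendrocyte barcodes. Cacna2d3 was in 34.1% of core excitatory barcodes, near the 32.4% of core oligodendrocyte barcodes, and in 24.5% of distal excitatory barcodes, above the 11.3% there. In the distal library 1 barcode gave 32 of the 123 Cacna2d3 UMIs.

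Levels were also followed across the number of Slc17a6 UMIs, since barcodes with 1 UMI fall outside the rule. In the core library Cacna2d1 stood at 661, 696 and 761 CPM in barcodes with 1, 2 and 3 or more Slc17a6 UMIs, and Cacna2d3 at 668, 473 and 393 CPM. Barcodes with 1 Slc17a6 UMI thus had about equal levels of the pair in the core library. In the distal library Cacna2d1 stood at 579, 819 and 737 CPM and Cacna2d3 at 349, 336 and 435 CPM. D130009I18Rik stood at 79.7, 136 and 197 CPM in the core and 51.5, 105 and 133 CPM in the distal library. Pax2 stood at 60.3, 49.4 and 42.7 CPM in the core library. Depth moved with the strata, with medians of 1657, 2777 and 4231 UMIs in the core and 2503, 3807 and 7741 in the distal library, and its part in the differences was not tested. Barcodes left out by their inhibitory UMIs are part of the inhibitory set. In the core library, at a median of 13442 UMIs, they had 462 CPM of Cacna2d1 and 1006 of Cacna2d3. Both values lay between the excitatory set and the whole inhibitory set. Those left out by Ebf2 had 1148 and 706 CPM in the core and 699 and 237 CPM in the distal library.

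**Figure D3:**
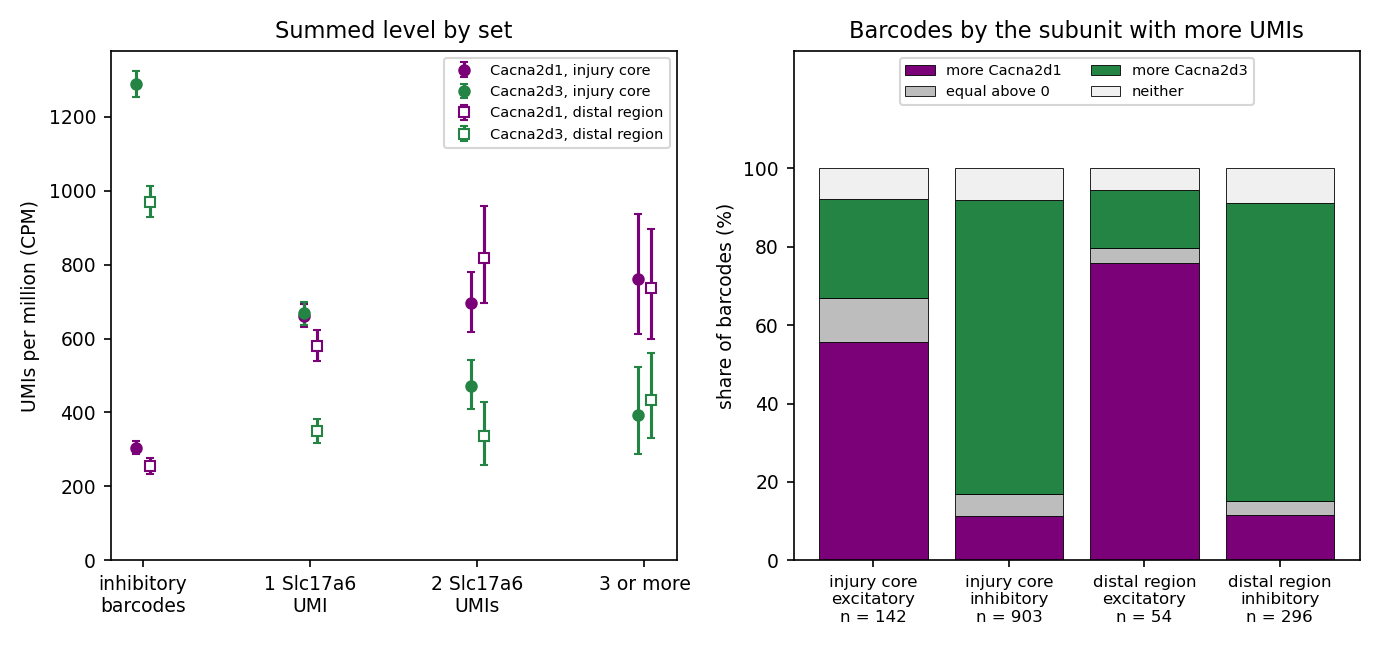
Left, level of Cacna2d1 and Cacna2d3 (CPM with exact Poisson 95% intervals) in inhibitory barcodes and in barcodes with 1, 2 and 3 or more Slc17a6 UMIs; right, share of barcodes in each set by the subunit with more UMIs. Cacna2d3 exceeds Cacna2d1 in inhibitory barcodes and Cacna2d1 exceeds Cacna2d3 in barcodes with 2 or more Slc17a6 UMIs of both libraries.

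Promoter sequences are shown for the gene that defines the set and for genes that separated it, 250 bases before to 50 bases after a transcription start, from RefSeq on GRCm38.p6. The motifs searched on both strands were the E-box CAGATG, a form bound by basic helix-loop-helix factors, and the homeodomain core TAATTA. A match of the E-box on the other strand reads CATCTG, while the homeodomain core reads the same on both strands. CAGATG was in 17.2% and TAATTA in 5.29% of 32851 promoters of this length. Capitals mark the matches. The windows are chr7:51624387-51624686 (plus strand, the second of 2 Slc17a6 starts), chr1:127677972-127678271 (minus strand, Tmem163), chr5:15934441-15934740 (plus strand, Cacna2d1) and chr14:29721815-29722114 (minus strand, Cacna2d3).
Slc17a6: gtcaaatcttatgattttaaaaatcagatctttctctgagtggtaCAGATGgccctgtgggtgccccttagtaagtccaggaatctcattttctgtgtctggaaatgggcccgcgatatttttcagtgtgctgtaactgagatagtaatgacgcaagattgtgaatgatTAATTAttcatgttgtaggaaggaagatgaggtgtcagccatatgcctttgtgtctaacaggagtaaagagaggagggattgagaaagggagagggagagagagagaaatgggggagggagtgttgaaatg
Tmem163: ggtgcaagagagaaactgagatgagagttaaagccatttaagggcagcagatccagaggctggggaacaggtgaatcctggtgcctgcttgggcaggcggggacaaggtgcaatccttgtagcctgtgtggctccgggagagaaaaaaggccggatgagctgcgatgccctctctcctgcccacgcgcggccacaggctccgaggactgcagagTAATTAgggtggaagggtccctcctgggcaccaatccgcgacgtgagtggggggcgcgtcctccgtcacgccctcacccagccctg
Cacna2d1: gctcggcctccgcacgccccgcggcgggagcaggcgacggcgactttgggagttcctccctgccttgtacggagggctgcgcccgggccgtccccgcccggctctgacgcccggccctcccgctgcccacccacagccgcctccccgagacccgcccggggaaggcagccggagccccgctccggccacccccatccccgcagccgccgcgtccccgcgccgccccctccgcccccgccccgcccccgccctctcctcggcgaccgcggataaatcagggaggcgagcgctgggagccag
Cacna2d3: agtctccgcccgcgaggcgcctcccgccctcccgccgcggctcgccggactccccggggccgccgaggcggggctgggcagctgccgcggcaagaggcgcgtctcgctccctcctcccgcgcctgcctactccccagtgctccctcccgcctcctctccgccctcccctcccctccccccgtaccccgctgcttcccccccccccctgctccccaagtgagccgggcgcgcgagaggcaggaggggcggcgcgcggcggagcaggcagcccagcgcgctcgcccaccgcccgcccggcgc
The second Slc17a6 start held 1 CAGATG and 1 TAATTA and the first start neither. Tmem163 held 1 TAATTA, and the windows of Cacna2d1, Cacna2d3, Lmx1b, Reln, Tafa1 and the 3 starts of Pax2 held neither. These are matches of letters, and say nothing of the binding of a factor.

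Among synaptic adhesion genes, 1 passed 1.5-fold in each direction in both libraries. Of 27 synaptic organisers, 19 were compared, 1 was higher in both libraries (Ntng1) and 1 lower (Nrxn3), with medians of 0.04 and 0.12. Ntng1, which encodes the axonal adhesion protein netrin-G1, had 439 against 248 CPM in the core library (1.77, 1.53 to 2.04) and 583 against 267 CPM in the distal library (2.18, 1.84 to 2.57). Nrxn3, the presynaptic adhesion protein neurexin 3, had 3456 against 6975 CPM in the core library (0.495, 0.473 to 0.519) and 2392 against 6028 CPM in the distal library (0.397, 0.369 to 0.427). Its relative Nrxn2 was not separated, with log2 ratios of 0.30 and -0.09. Lrrc4c, which encodes the netrin-G1 ligand, had ratios of 1.06 (1.01 to 1.12) and 0.91 (0.845 to 0.978). Nxph1, the neurexin ligand described above, was lower along with Nrxn3. All 30 cadherins, protocadherins and contactins and 26 of 32 axon guidance genes were compared, and 0 of either list passed 1.5-fold in the same direction in both libraries. Over all genes the shares were 0.839% higher and 1.26% lower in both, so 0 does not set these lists apart.

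Few listed receptor and channel genes passed 1.5-fold in the same direction in both libraries. Few did over all genes as well (0.839% higher and 1.26% lower in both), so this does not set these families apart. Of 16 AMPA, NMDA, kainate and delta receptor genes compared, 1 was lower in both libraries and 0 higher (medians -0.01 and 0.01). The one was Grik3, a kainate receptor subunit, with 135 against 213 CPM in the core library (0.632, 0.49 to 0.803) and 30.7 against 130 CPM in the distal library (0.235, 0.112 to 0.439). Gria2, the AMPA receptor subunit that limits calcium entry, had log2 ratios of 0.15 and 0.41, and Gria1, another AMPA subunit, -0.42 and -0.62, which passed 1.5-fold in the distal library alone. Among 6 metabotropic glutamate receptors, 14 GABA and glycine receptor subunits, 26 potassium and 10 sodium channel genes and 9 receptors for opioids, monoamines and acetylcholine, 0 passed 1.5-fold in the same direction in both libraries. Kcnmb2, a potassium channel subunit gene outside the lists and chosen after its values were seen, was lower in both, with log2 ratios of -0.71 and -0.93. Oprm1, the mu opioid receptor, had log2 ratios of -0.03 and -0.57. The other vesicular glutamate transporters were at or near 0, with 1 core and 0 distal UMIs of Slc17a7 and 0 and 2 of Slc17a8.

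The largest ratios over all genes belonged mostly to genes outside the lists. D130009I18Rik, a long intergenic noncoding RNA gene (chr14:104612791-104966783, plus strand), had 149 against 42.9 CPM in the core library (3.48, 2.64 to 4.56) and 117 against 18.5 CPM in the distal library (6.30, 3.92 to 10.1). It was concentrated, in 24 of 142 core (16.9%) and 10 of 54 distal (18.5%) excitatory barcodes, with up to 14 and 13 UMIs in a barcode. Oligodendrocyte barcodes had it in 4.38% and 0.693%. Tmem163, a zinc-binding transmembrane protein gene (chr1:127486546-127679548, minus strand), had 325 against 124 CPM (2.62, 2.19 to 3.12) and 411 against 106 CPM (3.87, 3.1 to 4.82), and was spread over 54.9% and 70.4% of excitatory barcodes. Thinned to 1000 UMIs, Tmem163 was in 27.3% and 34% of excitatory and 14.4% and 15.1% of oligodendrocyte barcodes. Tafa1, which encodes a secreted chemokine-like protein (chr6:96113154-96657198, plus strand), had 1221 against 631 CPM (1.94, 1.77 to 2.11) and 972 against 333 CPM (2.92, 2.55 to 3.34). Shisa6, an AMPA receptor auxiliary protein gene, was 1.79-fold (1.5 to 2.11) and 2.05-fold (1.63 to 2.55) higher, and Pcp4, a calmodulin regulator, 2.05-fold (1.31 to 3.12) and 2.21-fold (1.14 to 4.04). Tmem200a, Gm11418, Tm7sf3 and Aida complete the 12 with the largest ratios in both libraries. Each had under 30 UMIs in the excitatory barcodes of either library. Gm11418 is antisense to Asic2. Shisa6 was chosen after its values were seen.

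Low in excitatory barcodes beyond the lineage factors were few abundant genes. Kank1, which encodes an adaptor of the cell cortex, had 7 UMIs (12.9 CPM) against 209 (52.4 CPM) in the core library, a ratio of 0.246 (0.0978 to 0.517), and 3 against 138 in the distal library, a ratio of 0.141 (0.0287 to 0.42). Irs2, an insulin receptor substrate, had 4 and 3 UMIs in excitatory barcodes, with ratios of 0.359 (0.0955 to 0.954) and 0.341 (0.0682 to 1.05). Atxn7l3b, Gm14204, B130024G19Rik and Gm13963 were in the same range of ratios on 0 to 6 UMIs in excitatory barcodes. These low counts carry wide intervals.

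Within the excitatory barcodes the genes with the widest spread were shared by both libraries in part. After thinning to 1000 UMIs, the variance of Dpp10, a potassium channel partner, was 6.23 times its mean over 132 core barcodes and 5.19 times over 53 distal barcodes. Kcnip4, of the same channel complex, reached 3.34 and 6.77, against a median of 1.02 over 2546 genes in the core and 1.08 over 946 genes in the distal library. Nrg1, a growth factor gene, reached 2.46 and 3.27, Asic2, an acid-sensing channel gene, 2.36 and 3.42, and Nrxn3 2.29 and 3.04. Kirrel3, an adhesion gene, was among the 10 most variable in the core library at 3.22, and Ebf1 in the distal library at 3.09. A variance above the mean here shows that barcodes of the set did not share 1 level of these genes, and it was not tested.

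The level of D130009I18Rik differed between excitatory barcodes with and without Cacna2d3, but the share of barcodes that held it did not run one way. In core excitatory barcodes without Cacna2d3 (51 barcodes) D130009I18Rik stood at 333 CPM, and in those with it (91 barcodes) at 95.4 CPM, a ratio of 0.287 (0.181 to 0.455). In the distal library the values were 280 CPM over 25 barcodes and 58.2 CPM over 29, a ratio of 0.208 (0.0993 to 0.418). D130009I18Rik was detected in 10 of the 51 core barcodes without Cacna2d3 and 14 of the 91 with it, and in 3 of the 25 distal barcodes without and 7 of the 29 with it, so the distal level without Cacna2d3 rests on 24 UMIs in 3 barcodes. Cacna2d1 stood at 0.873 times (0.691 to 1.11) and 0.783 times (0.598 to 1.03) its level in barcodes without Cacna2d3, with intervals that include 1. Barcodes with Cacna2d3 were deeper, at medians of 3654 against 2264 UMIs in the core and 6976 against 2592 in the distal library, and the part of depth was not tested. Lmx1b-positive barcodes, 32 core and 15 distal, had Cacna2d1 at 1.06 times (0.844 to 1.33) and 1.12 times (0.826 to 1.5) the level of Lmx1b-negative ones. Reln was 1.30 times (0.82 to 2.03) and 1.31 times (0.674 to 2.42) as high, with intervals that include 1. Ebf1 was 2.09 times (1.68 to 2.59) as high in Lmx1b-positive distal barcodes and 1.21 times (1.03 to 1.43) in core ones. These co-detections were picked after their values were seen and rest on few barcodes. Cells of 1 library share their source, so they describe these 2 libraries.

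Between the libraries, the genes lowest in core excitatory barcodes were Xist and genes of oligodendrocytes, which were also low in core inhibitory barcodes, while the highest ratios were seen in Taco1 and Grik3. Of 3230 genes with at least 50 UMIs over both excitatory sets, 297 were at least 1.5-fold higher in the core (9.2%) and 340 at least 1.5-fold lower (10.5%). Xist had 1 core and 164 distal UMIs. Trf, the iron carrier transferrin, had a core over distal ratio of 0.0859 (0.0354 to 0.181) in excitatory and 0.11 in inhibitory barcodes, and Mag, a myelin glycoprotein gene, 0.153 (0.0823 to 0.268) and 0.156. Sec14l5, Aspa, Daam2 and Gjc3 were also among the lowest 8, with ratios from 0.127 to 0.176. All 5 compared genes of the 6 oligodendrocyte markers were lower in the core, and their sum was 502 CPM in core and 2512 CPM in distal excitatory barcodes. Oligodendrocyte barcodes made up 0.837% of the core and 27.1% of the distal library. The part of oligodendrocyte RNA in other differences between the libraries was not tested. At the other end, Taco1, a mitochondrial translation activator gene, had 262 against 58.3 CPM, a ratio of 4.49 (2.77 to 7.68), and 3.58 (2.98 to 4.33) in inhibitory barcodes. Grm4, a metabotropic glutamate receptor gene, had a ratio of 3.38 (1.58 to 8.31) and 2.42 (1.82 to 3.26). Hjurp, Ehmt2, Pcbd2 and A830082K12Rik, with 7 to 9 distal UMIs each, had ratios from 3.07 to 3.78 in excitatory and from 1.25 to 2.46 in inhibitory barcodes.

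Genes of position along the body axis differed as well. Hoxc10, a Hox gene of the lumbar cord, had 26 core UMIs and 1 distal UMI in excitatory barcodes, a ratio of 15.6 (2.57 to 641), and a ratio of 11.5 (5.44 to 29) in inhibitory barcodes. Hoxd11 had 9 and 0 UMIs, at least 1.8-fold higher in the core, and 80 and 0 in inhibitory barcodes, at least 14.1-fold. Hoxc8 was 2.08-fold (1.33 to 3.36) higher in core excitatory and 2.1-fold (1.8 to 2.48) in core inhibitory barcodes, while Hoxa9 had a ratio of 1.07 (0.537 to 2.23) in excitatory barcodes. These values move with the region labels, so the level of the cord and its distance from the lesion cannot be told apart.

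Between the libraries, 3 of the 5 kainate receptor genes passed 1.5-fold in excitatory barcodes. Over all 3230 genes compared, 9.2% were higher and 10.5% lower in the core. The kainate genes were part of a longer receptor list and not a list of their own. Of 16 glutamate receptor genes compared between the libraries, 4 were at least 1.5-fold higher in the core (Gria1, Grik1, Grik3 and Grik5) and 0 lower (Grik4 at a log2 ratio of 0.26 and Grik2 at -0.27 did not pass), with a median log2 ratio of 0.24 in excitatory and 0.30 in inhibitory barcodes. Grik3 had 135 CPM (73 UMIs) in the core and 30.7 CPM (10 UMIs) in the distal excitatory set, a ratio of 4.39 (2.26 to 9.54), against 1.63 (1.43 to 1.88) in inhibitory barcodes. Grik1, another kainate subunit, was 2.09-fold (1.61 to 2.74) higher in excitatory and 1.15-fold (1.06 to 1.25) in inhibitory barcodes. Neto2, an auxiliary subunit of kainate receptors and not on the list of receptors, had a ratio of 3.61 (1.69 to 8.83) in excitatory and 0.97 (0.795 to 1.19) in inhibitory barcodes. It rested on few distal UMIs, of which 1 excitatory barcode held 4. Without the barcode with the most Neto2 UMIs in each library, 42 core and 4 distal UMIs were left (ratio 6.3, 2.29 to 24.2). The difference between the 2 sets was not tested, and with 1 library for each region it has no replicate check.

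Other factors separated the 2 excitatory sets in either direction. Zfhx3, a homeobox gene that marks long-range spinal neurons, was 2.06-fold (1.67 to 2.55) higher in the core, and 1.27-fold (1.18 to 1.38) in inhibitory barcodes. Maf stood at 0.519 (0.339 to 0.792) of its distal level in excitatory barcodes and at 1.48 (1.23 to 1.8) in inhibitory barcodes. Without the barcode with the most Maf UMIs in each library, the excitatory ratio was 0.714 (0.441 to 1.17) and no longer passed 1.5-fold. Nfia, a nuclear factor of late-born spinal neurons, stood at 0.544 (0.423 to 0.699) and 0.679 (0.618 to 0.745). Rbfox3 was 1.66-fold (1.36 to 2.04) and Meg3, a noncoding RNA abundant in neurons, 1.65-fold (1.58 to 1.72) higher in the core, with 1.74-fold and 1.73-fold in inhibitory barcodes. Of 15 injury and regrowth genes, 4 were compared between the libraries, 1 was higher in the core and 2 lower. The shares over all genes compared were 9.2% higher and 10.5% lower. Gap43, a growth cone protein gene, had a ratio of 1.55 (0.972 to 2.54), and Klf7 and Smad1, transcription factors of axon growth, 0.564 (0.369 to 0.862) and 0.577 (0.378 to 0.879). Klf7 was lower in inhibitory barcodes as well, with log2 ratios of -0.82 in excitatory and -0.75 in inhibitory barcodes. The median log2 ratio over the 4 was -0.63 in excitatory and -0.01 in inhibitory barcodes. Atf3, an injury-induced factor of sensory and motor neurons, had 0 UMIs in the excitatory barcodes of both libraries. Neurod1, the gene of the induced factor, had 3 core and 0 distal UMIs in excitatory barcodes, and 12 and 16 in inhibitory barcodes. The labels do not say whether reads of the transgene are counted under this symbol.

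**Figure D4:**
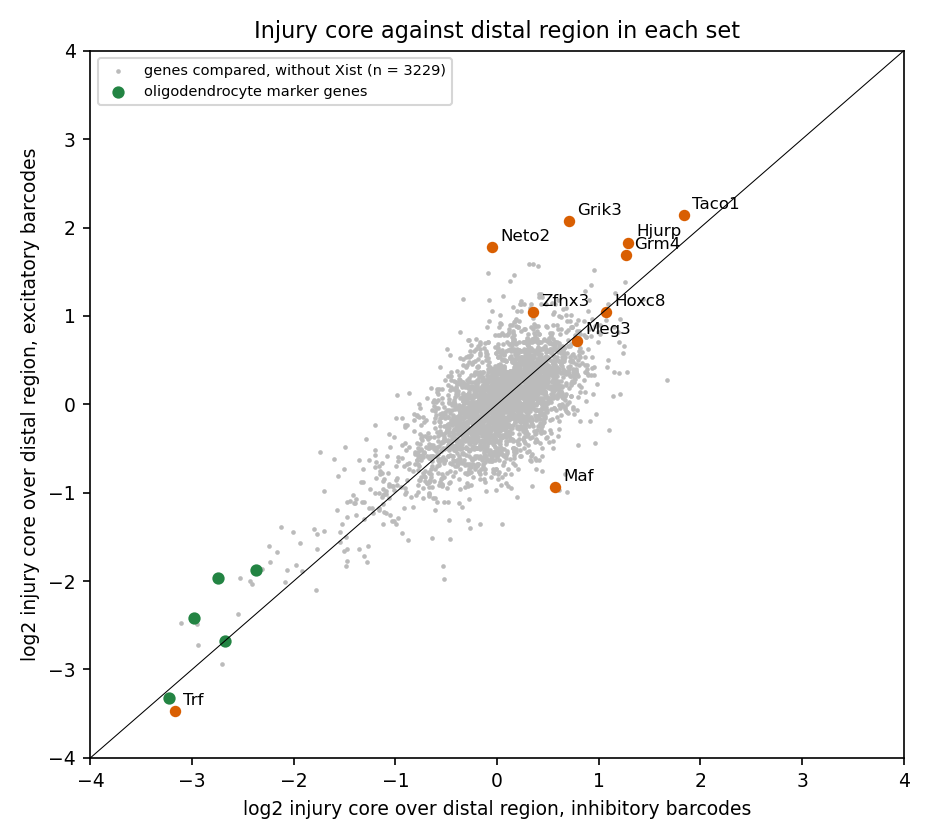
Each point is a gene; the axes give the log2 ratio of injury core over distal region in inhibitory (horizontal) and excitatory (vertical) barcodes, the line marks equal ratios, and Xist is left out. Oligodendrocyte marker genes lie at the lower left near the line. Grik3 and Neto2, both with few distal excitatory UMIs, lie above the line. Maf, whose place rests on 1 distal barcode with 18 UMIs, lies below it.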

How the data were processed

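Single-nucleus RNA from frozen cord was counted in 2 libraries (10x 3' chemistry). The deposited matrices hold raw UMI counts for each gene and barcode, written by Cell Ranger 7.1.0 per the file headers. Seurat, mm10 and GRCh38 also appear in the submitters' processing notes, with no role stated. No source used here names the annotation. Positions come from GENCODE M21 (GRCm38), which held 32235 of the 32285 gene identifiers (99.8%). The members, gene lists and comparisons were chosen with earlier results of these data known. Counts were summed over each set of barcodes. Ratios of CPM carry exact conditional intervals, levels exact Poisson intervals and shares Clopper-Pearson intervals (95%). Log2 ratios add 0.5 UMIs to each sum. A gene was compared at 50 or more UMIs over both sets and counted at 1.5-fold. A 0 was set at a floor of 3 UMIs. No model across genes was fitted, because nuclei are not replicates. Oligodendrocyte barcodes had at least 10 UMIs and 1% of all UMIs from 6 myelin genes. Named genes were up to 6 per direction of each list past 1.5-fold in both libraries, the 12 largest ratios in each direction, the 8 largest in each direction between the libraries, Hox genes, sparse defining members, and the 10 most variable genes. Other genes named were chosen after their values were seen. Doublets were left in and no caller was run. Shares were also computed after thinning to 1000 UMIs per barcode; 10 core and 1 distal excitatory barcodes were shallower and dropped there. The symbol Ddit3 is carried by more than 1 feature and was not used. Intervals ignore differences between animals. Alternatives changed the rule for either set, the UMI minimum, the UMIs added, the weighting of barcodes and the centring, and left out the deepest or oligodendrocyte-rich barcodes. Python 3.11.15, numpy 2.4.6 and scipy 1.17.1 were used, and the steps were tested on simulated data. Some listed genes that enter the counts are not reported here by name.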

Additional observations from a re-analysis of the deposited data

How the results depend on the processing

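Of 943 alternative log2 ratios of 35 named genes, 886 lay within the counting interval of the reported ratio, 54 lay outside it with the same sign and 3 changed sign. Some of the 943 could not move, or hardly so. A limit of 500 genes and 5% mitochondrial UMIs left out 0 excitatory barcodes in either library. Minimums of 20 and 200 UMIs change only which genes are compared. Centring on the median gene left the same 56 and 84 genes. Such values say nothing of how firm a ratio is. The ratios of Cacna2d1, Cacna2d3, Nrxn3, Ntng1, Reln, Lmx1b, Tafa1, Tmem163, D130009I18Rik, Pax2, Pax8, Sall3, Rorb and Nxph1 stayed past 1.5-fold in every alternative that compared them. Those that changed sign, as log2 ratios, were Kcnip2 in the distal region (0.14 with 5 UMIs added to each sum), Atxn7l3b in the injury core (0.05 with at least 3 Slc17a6 UMIs) and Irs2 in the distal region (0.24 with no limit on Ebf2), and the cause was not tested. Counts of genes moved with settings that change how many genes or barcodes enter. With at least 3 UMIs of Slc17a6, 23 core and 13 distal members were left. The counts of genes higher and lower in excitatory barcodes were then 1570 and 1391 (core), 914 and 1240 (distal), 199 and 242 (both libraries), and 124 and 89 between the libraries. With at least 20 UMIs for a gene they were 1208 and 1281, 1244 and 1455, 185 and 230, and 758 and 1021. With at least 200 UMIs they were 49 and 103, 59 and 97, 8 and 13, and 54 and 40. With 5 UMIs added to each sum, which acts unequally because the sets differ in total, they were 1564 and 67 in the core, 1335 and 89 in the distal region, and 281 and 16 in both. With 5 UMIs added in proportion to set size, chosen after seeing the data, they were 137 and 376, 165 and 383, and 21 and 43. With every barcode weighted alike, 763 core, 773 distal and 103 shared genes were higher and 138 shared genes lower. Without the deepest 5% of barcodes, 272 distal genes were higher, 360 distal and 55 shared genes lower, and 164 and 127 differed between the libraries, higher and lower in the core. With no limit on Ebf2, 431 distal genes were lower, and 560 and 765 differed between the libraries. With inhibitory barcodes at 0 Slc17a6 UMIs, 36 shared genes were higher. Which genes passed depended on the setting. Of the 56 higher and 84 lower genes, 54 and 76 passed again with barcodes weighted to the same depths, 52 and 75 without barcodes over 1% oligodendrocyte UMIs, 41 and 57 with 0 inhibitory UMIs, 39 and 55 with every barcode weighted alike, and 34 and 57 with inhibitory barcodes under 4 Ebf2 UMIs. With no limit on Ebf2 29 and 38 passed again, with at least 3 Slc17a6 UMIs 26 and 39, with inhibitory barcodes at 0 Slc17a6 UMIs 26 and 50, with 5 UMIs in proportion 21 and 43, and with 5 UMIs added to each sum 56 and 16. Without the deepest 5% of barcodes, 12 and 23 of them were compared, of which 11 and 19 passed. Leaving out the barcode with the most UMIs of a gene was added after seeing the data, for 14 genes. Maf then lost its calls, and D130009I18Rik passed 1.5-fold between the libraries (ratio 1.61). Depth limits genes with few UMIs. No paired analysis was possible because each region has 1 library.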
